A study of Mus musculus with 9 samples.

Results

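The 10 genes of the Polycomb and H3K27 demethylase machinery described here were followed through reprogramming of mouse fibroblasts: Ezh1, Ezh2, Eed, Suz12, Jarid2, Mtf2, Rnf2, Bmi1, Kdm6a and Kdm6b. They were taken by name, and all 10 of 10 had a row among the 12550 genes of the deposited table. Mouse embryonic fibroblasts (MEFs) of the C57Bl/6cJ strain received plasmids for Oct4, Sox2, Klf4 and c-Myc together with a pretroSuper construct for a short hairpin RNA. The hairpin was directed against luciferase (the control arm), against Hnrnpk, which encodes an RNA-binding protein, or against lincRNA-p21 (gene Trp53cor1), a p53-induced long non-coding RNA. All 3 arms thus carried the 4 factors and a hairpin, and no library of untreated fibroblasts or of finished pluripotent cells is analysed here. The cells were kept in embryonic stem cell medium with leukemia inhibitory factor, and total RNA was sequenced from each arm on days 6, 9 and 12. Each arm and day has 1 library, 9 in all, whose titles say that replicates were merged. Each knocked-down gene is labelled with 1 hairpin arm.

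Polycomb repressive complex 2 (PRC2) places methyl groups on lysine 27 of histone H3, a mark of silenced developmental genes. Its catalytic subunit is Ezh2 or its paralog Ezh1, held with Suz12 and with Eed, which binds the finished mark, while Jarid2 and Mtf2 are accessory subunits that help bring the complex to its targets. Polycomb repressive complex 1 (PRC1) adds ubiquitin to histone H2A through Rnf2 (Ring1B), which pairs with a Pcgf protein such as Bmi1 (Pcgf4), a repressor of the Cdkn2a locus. Kdm6a (Utx) and Kdm6b (Jmjd3) are demethylases that remove the H3K27 mark. In pluripotent cells PRC2 covers many lineage genes that are silent there.

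The deposited values are a normalized signal with no read counts, so the depth behind each value is unknown. Differences below are log2 values after adding 10, and adjusted p-values are from limma with Benjamini-Hochberg adjustment over 12541 genes, with a gene called when the adjusted p was under 0.05. With 1 library per arm and day, these p-values measure only how an arm difference varied between days, or a day difference between arms, and not the spread between cultures. Hnrnpk itself had a mean signal of 13719 in its own arm against 27188 in the control arm (adjusted p = 0.00824), and Trp53cor1 had 103 in the lincRNA-p21 arm (adjusted p = 0.0603) and 129 in the Hnrnpk arm (adjusted p = 0.00752) against 258. All 16 fibroblast markers sought were in the table, and by day 12 6 of them were called lower and 0 higher, where 27% of all genes were lower and 22.3% higher. The largest falls were those of Dcn (-1.16), Twist1 (-1.13) and Prrx1 (-0.98). A difference above 0, without a call, was seen for 2 of the 16, among them Postn, which was higher in every arm. The median over the 16 markers was -0.38. Their summed signal was 366484 to 437362 on day 6 and 307481 to 381290 on day 12, much of it from Col1a2 and Vim, which stood in several libraries at the highest value of the table, 118715. Of 17 pluripotency markers 16 were in the table, and their sum went from 31533.5 to 48032.5 on day 6 to 69564 to 109883 on day 12, most of it from Pou5f1 and Sox2, which the plasmids also encode. The sum of 109883 was that of the control library, with Pou5f1 at 90514. On day 12 14 of the 16 were above control and 2 below in the Hnrnpk arm (median 2.28). In the lincRNA-p21 arm 13 were above and 3 below (median 1.92). On day 6 Dppa4 and Dnmt3l were listed at 0 in the control library and Lin28a in the Hnrnpk library. The sum of 12 epithelial markers went from 3123.5 to 5815 on day 6 to 23943 to 46916 on day 12. Of 8 macrophage markers only Cd68 was in the table used here, at 780 in the Hnrnpk library of day 6 and 120.5 to 556 elsewhere, and of 7 endothelial markers only Tek and Vwf. These shifts in marker levels ran with the day differences below, their part in those differences was not tested, and in such bulk RNA fewer cells of a type and less RNA per cell cannot be told apart.

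Promoter sequences are shown for the paralogs Ezh2 and Ezh1, whose signals ran in opposite directions in the control arm, and for Suz12, the other gene of the 10 with a match to the E2F-type motif searched. Each runs from 250 bases before to 30 bases after a RefSeq start (build GRCm38.p6), 5′ to 3′ on the gene's strand, and capitals mark a match to an E2F-type motif, the kind found before many genes of DNA replication. The windows are chr6:47595001-47595280 (minus strand) for Ezh2, chr11:79992856-79993135 (plus strand) for Suz12 and chr11:101226434-101226713 (minus strand) for Ezh1.
Ezh2: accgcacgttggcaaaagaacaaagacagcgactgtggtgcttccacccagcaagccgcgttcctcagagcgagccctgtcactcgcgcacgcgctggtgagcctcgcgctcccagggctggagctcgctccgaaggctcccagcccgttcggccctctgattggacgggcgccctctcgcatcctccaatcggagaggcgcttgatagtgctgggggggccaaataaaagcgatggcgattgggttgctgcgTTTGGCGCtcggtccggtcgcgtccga
Suz12: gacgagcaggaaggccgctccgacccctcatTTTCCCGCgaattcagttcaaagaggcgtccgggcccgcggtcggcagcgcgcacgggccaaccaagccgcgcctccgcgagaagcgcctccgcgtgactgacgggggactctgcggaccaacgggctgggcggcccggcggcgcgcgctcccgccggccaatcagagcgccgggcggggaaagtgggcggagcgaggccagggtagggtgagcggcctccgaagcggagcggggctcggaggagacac
Ezh1: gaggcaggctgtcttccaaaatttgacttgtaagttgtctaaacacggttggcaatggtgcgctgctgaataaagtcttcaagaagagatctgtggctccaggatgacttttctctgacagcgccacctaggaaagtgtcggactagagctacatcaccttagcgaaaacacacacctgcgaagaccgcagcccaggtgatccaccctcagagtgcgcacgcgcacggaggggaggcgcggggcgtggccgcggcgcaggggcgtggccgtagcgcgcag
The search took the letters TTTCCCGC, TTTCGCGC, TTTGCCGC and TTTGGCGC on both strands, in windows reaching 50 bases past the start. The match in Ezh2 began at base 4 after the start and the match in Suz12 at base -219, and the Ezh1 window held none of these letters. RefSeq promoters were found for 9 of the 10 genes in 11 windows, of which 2 held a match, against 2.26% of 32851 mouse promoter windows of the same length. The CCAAT box (CCAAT, both strands) was present in 6 of the 11 windows, of 5 genes, with 3 copies before the Ezh2 start, against 37.4% of all windows. The E-box CACGTG lay before the starts of Bmi1 and Kdm6a, against 7.15% of all windows. The E2F-type letters and the E-box all contain CG, and most windows of these genes were rich in CG. An Mtf2 window held 2 CG pairs in 280 bases and the others 15 (Eed) to 41 (Suz12), against a median of 6 over all promoters. The shares over all windows are therefore not matched for CG, and enrichment of these motifs was not tested. A match of letters describes the sequence only and was not tested for binding.

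All 10 genes were expressed in every library, from 594.5 (Bmi1, Hnrnpk arm on day 12) to 6950 (Kdm6b, control arm on day 6), where the median over all genes and libraries was 817. Divided by merged exon length (GENCODE M21), the median signal per kb was highest for Suz12 at 688, with a range of 394 to 850 over the 9 libraries. Kdm6b followed at 574, from 468 to 999, and its range overlapped that of Suz12. The other 8 genes had medians between 207 (Bmi1) and 302 (Rnf2) with overlapping ranges, so their order was not separated by the spread between libraries. Whether the deposited signal already took length into account is not known. The plot of signal by day shows that Rnf2 varied least, with a highest to lowest ratio of 1.17, and Jarid2 most, at 2.84.

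**Figure D1:**
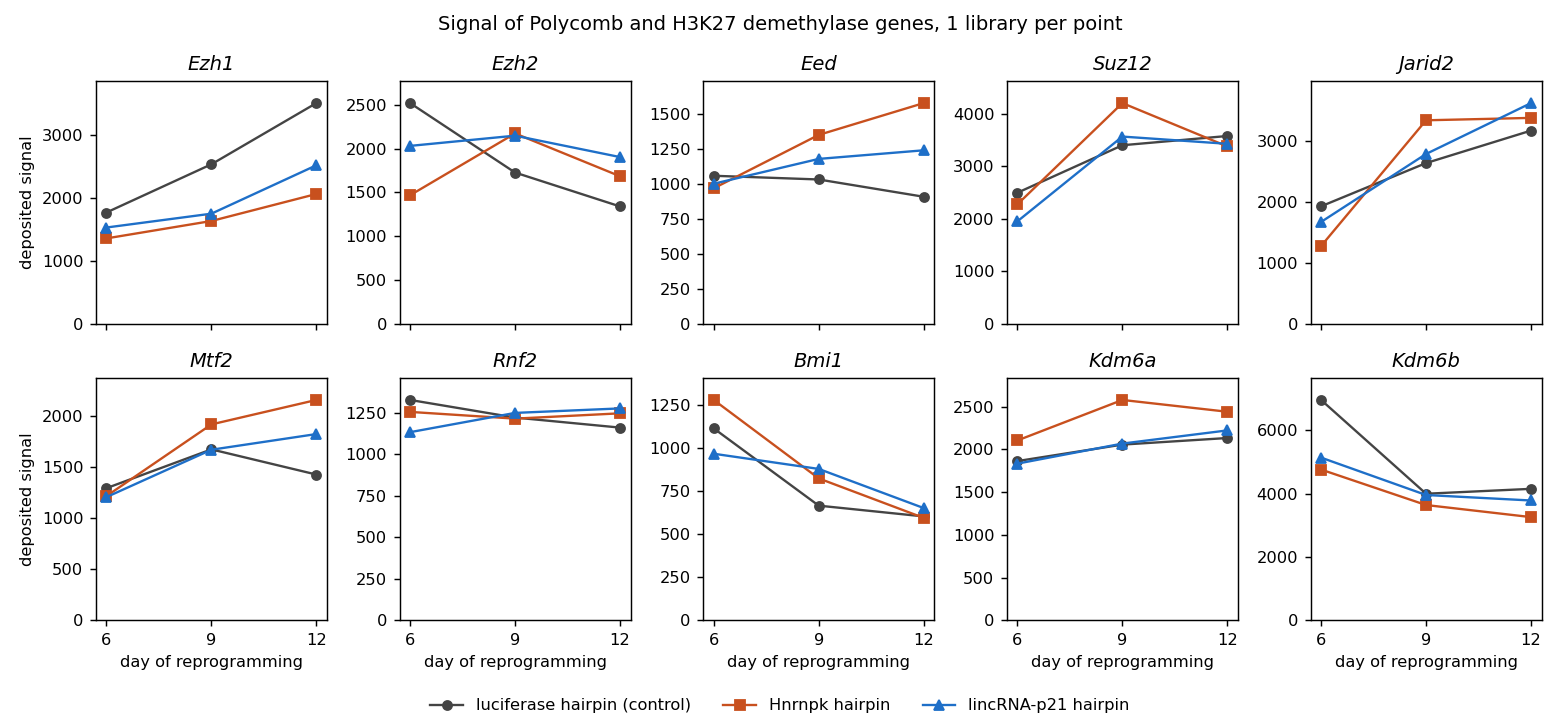
Deposited signal (y axis, from 0) of each gene against day of reprogramming (x axis) in the control (grey circles), Hnrnpk (orange squares) and lincRNA-p21 (blue triangles) arms, 1 library per point. Suz12 and Jarid2 stood higher on days 9 and 12 than on day 6 in all arms, Bmi1 and Kdm6b stood lower, and Ezh2 ran downward in the control arm from 2523 to 1340.

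Between day 6 and day 12, 4 of the 10 genes rose and 2 fell. All 4 that rose encode PRC2 subunits, namely Jarid2, Ezh1, Suz12 and Mtf2, and the 2 that fell were the PRC1 subunit Bmi1 and the demethylase Kdm6b. The remaining PRC2 genes of the 10, Ezh2 and Eed, were not called. Outside the 10, 8 further PRC2 accessory genes had 1 rise and 2 falls. Over all genes tested 22.3% rose and 27% fell in this comparison. The median difference of the 10 genes was 0.24, against -0.04 over all genes.

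Ezh1 (chr11:101191115-101226463, mm10 as all positions here, from GENCODE M21), the alternative PRC2 methyltransferase, stood on days 6, 9 and 12 at 1764, 2530.5 and 3503 with the control hairpin, at 1352.5, 1629 and 2058.5 with the Hnrnpk hairpin and at 1525.5, 1745.5 and 2514.5 with the hairpin against lincRNA-p21. Every arm was higher on each later day, and all day 12 libraries lay above all day 6 libraries. The difference from day 6 to day 12 was 0.77 (SE 0.11, 95% interval 0.53 to 1.01, adjusted p = 0.00059), a fold change of 1.70. From day 6 to day 9 it was 0.33 (adjusted p = 0.0392) and from day 9 to day 12 it was 0.44 (adjusted p = 0.12).

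Ezh2 (chr6:47530139-47595341), the main methyltransferase of dividing cells, stood on the same days at 2523, 1728 and 1340 with the control hairpin, at 1468, 2175.5 and 1685.5 with the Hnrnpk hairpin and at 2033, 2150 and 1905 with the hairpin against lincRNA-p21. The control arm went down on each later day while both knockdown arms peaked on day 9, and the days overlapped. The difference from day 6 to day 12 was -0.27 (95% interval -0.73 to 0.20, adjusted p = 0.301), made up of -0.91 in the control arm, 0.20 in the Hnrnpk arm and -0.09 in the lincRNA-p21 arm. It was called only without the Hnrnpk library of day 6 (-0.52, adjusted p = 0.0405) among the 17 alternatives.

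Within each library, the ratio of Ezh1 to Ezh2 signal describes how the paralogs diverged. With the control hairpin it was 0.699, 1.46 and 2.61 on the 3 days, with the Hnrnpk hairpin 0.921, 0.749 and 1.22, and with the hairpin against lincRNA-p21 0.750, 0.812 and 1.32. The control arm was lowest of the 3 on day 6 and highest on days 9 and 12. The ratio has 1 value per arm and day and was not tested.

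**Figure D2:**
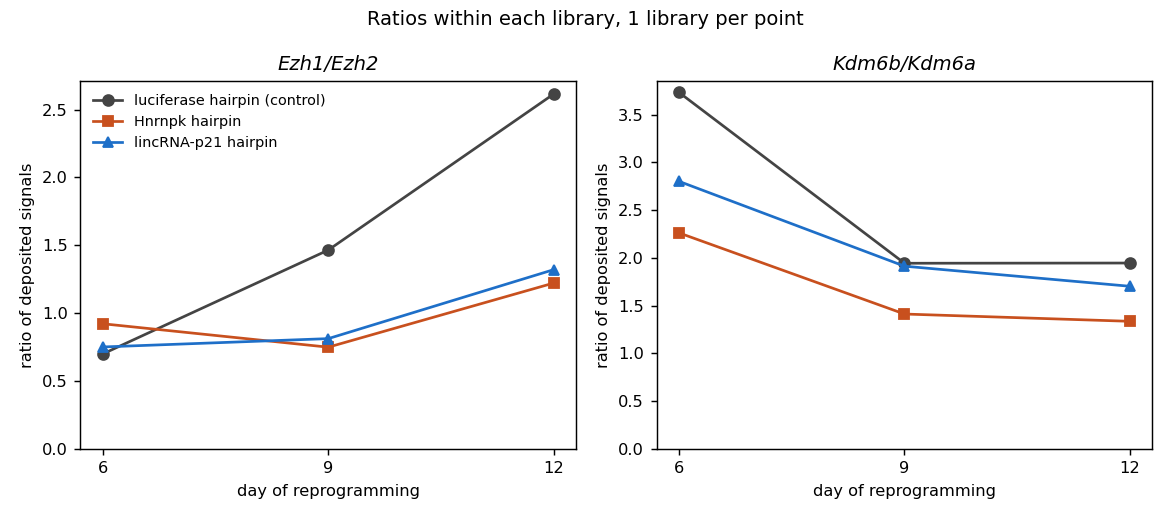
Ratio of deposited signals (y axis, from 0) of Ezh1 to Ezh2 (left) and of Kdm6b to Kdm6a (right) against day of reprogramming, 1 library per point, with arms marked by colour and shape. In the control arm the ratio of Ezh1 to Ezh2 went from 0.699 to 2.61, and that of Kdm6b to Kdm6a from 3.73 to 1.95.

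Suz12 (chr11:79993106-80034123), the PRC2 scaffold subunit, stood at 2495, 3401 and 3577.5 with the control hairpin, at 2274, 4205.5 and 3378.5 with the Hnrnpk hairpin and at 1949.5, 3566.5 and 3428.5 with the hairpin against lincRNA-p21. All libraries of days 9 and 12 were above all libraries of day 6. The rise was 0.73 by day 9 (SE 0.12, adjusted p = 0.00208) and 0.63 by day 12 (SE 0.12, adjusted p = 0.00269), which is 1.66-fold and 1.55-fold. Eed (chr7:89954654-89980983), the subunit that reads the mark, stood at 1056, 1029.5 and 906 with the control hairpin, at 966.5, 1348 and 1575.5 with the Hnrnpk hairpin and at 999, 1176.5 and 1238 with the hairpin against lincRNA-p21. The control arm went down and both knockdown arms went up, and over all arms the difference from day 6 to day 12 was 0.26 (95% interval -0.09 to 0.62, adjusted p = 0.189). It was called without the control library of day 6 (0.45, adjusted p = 0.0229), without that of day 12 (0.44, adjusted p = 0.0419) and without the control arm (0.50, adjusted p = 0.0173), and from day 6 to day 9 it was called without the control library of day 6 (0.41, adjusted p = 0.0357).

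Jarid2 (chr13:44729474-44921643), an accessory subunit and a Jumonji family protein without demethylase activity, had the largest rise of the 10 genes. It stood at 1927, 2638 and 3172 with the control hairpin, at 1274, 3341.5 and 3381 with the Hnrnpk hairpin and at 1670, 2787.5 and 3624.5 with the hairpin against lincRNA-p21. No library of days 9 or 12 overlapped day 6. The rise was 0.86 by day 9 (SE 0.17, adjusted p = 0.0045) and 1.08 by day 12 (SE 0.17, adjusted p = 0.00102), a fold change of 2.11.

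Mtf2 (Pcl2, chr5:108065674-108109004), a Polycomb-like subunit that binds DNA, stood at 1294.5, 1674.5 and 1428 with the control hairpin, at 1217, 1919 and 2158.5 with the Hnrnpk hairpin and at 1207, 1671 and 1824.5 with the hairpin against lincRNA-p21. Its day 6 libraries were the lowest of the 9. It rose by 0.50 by day 9 (SE 0.13, adjusted p = 0.0172) and by 0.52 by day 12 (SE 0.13, adjusted p = 0.011), with day 12 above day 6 by 0.14 in the control arm, 0.82 in the Hnrnpk arm and 0.59 in the lincRNA-p21 arm.

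Of the PRC1 genes, Bmi1 fell and Rnf2 stayed within a narrow range. Bmi1 (chr2:18677018-18686629) stood at 1113.5, 665.5 and 603 with the control hairpin, at 1278.5, 823.5 and 594.5 with the Hnrnpk hairpin and at 966.5, 878.5 and 651.5 with the hairpin against lincRNA-p21, with each day below the one before it in every arm and no overlap between days. It fell by 0.50 by day 9 (SE 0.13, adjusted p = 0.0188) and by 0.84 by day 12 (SE 0.13, adjusted p = 0.00123), so that day 12 was 1.79-fold lower. Rnf2 (chr1:151458004-151500955), the ubiquitin ligase, stood at 1327, 1221 and 1160.5 with the control hairpin, at 1255, 1214.5 and 1246.5 with the Hnrnpk hairpin and at 1133, 1249 and 1276 with the hairpin against lincRNA-p21. Its days overlapped, and the difference from day 6 to day 12 was -0.01 (95% interval -0.24 to 0.22, adjusted p = 0.944).

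Of the demethylases, Kdm6b fell and Kdm6a did not pass the test. Kdm6b (chr11:69398508-69413675), known as an inducible enzyme, stood at 6950, 3993 and 4147.5 with the control hairpin, at 4755.5, 3637 and 3256 with the Hnrnpk hairpin and at 5132, 3953 and 3780 with the hairpin against lincRNA-p21. All day 6 libraries were above all later ones, with the control library of day 6 far above the rest. The fall was -0.52 by day 9 (SE 0.11, adjusted p = 0.0074) and -0.58 by day 12 (SE 0.11, adjusted p = 0.00329), which is 1.49-fold lower. Kdm6a (chrX:18162575-18279936), the X-linked enzyme, stood at 1862.5, 2055 and 2132 with the control hairpin, at 2103.5, 2577 and 2439 with the Hnrnpk hairpin and at 1832.5, 2067 and 2221 with the hairpin against lincRNA-p21. Day 12 was above day 6 in each arm, by 0.23 over all arms (95% interval 0.02 to 0.43, adjusted p = 0.0653), and this passed only with median-ratio scaling (0.27, adjusted p = 0.0353). The ratio of Kdm6b to Kdm6a went from 3.73 to 1.95 in the control arm between days 6 and 12, from 2.26 to 1.33 in the Hnrnpk arm and from 2.80 to 1.70 in the lincRNA-p21 arm.

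By day 9 Jarid2, Suz12, Mtf2 and Ezh1 had risen and Kdm6b and Bmi1 had fallen, where 18.9% of all genes tested rose and 21% fell. From day 9 to day 12 none of the 10 was called by limma, where 0.654% of all genes were called. Of the 10, 2 (Ezh1 and Bmi1) had an unadjusted p under 0.05, against 14.1% of all genes. Several day 9 calls lay near the threshold, and with fewer libraries the adjusted p passed 0.05 while the difference kept its sign. That of Ezh1 (0.33) was lost without an intensity trend (adjusted p = 0.052), with only the 2 days in the fit (adjusted p = 0.0677), without the control library of day 6 (0.22, adjusted p = 0.0908) or day 9 (0.28, adjusted p = 0.153), without the Hnrnpk library of day 9 (0.31, adjusted p = 0.137), or without the lincRNA-p21 library of day 6 (0.37, adjusted p = 0.0653) or day 9 (0.38, adjusted p = 0.0875). It was also lost without the lincRNA-p21 library of day 12, which left the difference at 0.33 (adjusted p = 0.0771). That of Mtf2 was lost without the control library of day 9 (0.46, adjusted p = 0.0806), the Hnrnpk library of day 6 (0.38, adjusted p = 0.0565) or day 9 (0.49, adjusted p = 0.0691), or the lincRNA-p21 library of day 6 (0.48, adjusted p = 0.0664) or day 9 (0.53, adjusted p = 0.0566). That of Bmi1 was lost without the control library of day 9 (-0.39, adjusted p = 0.104) or the Hnrnpk library of day 6 (-0.41, adjusted p = 0.0622) or day 9 (-0.50, adjusted p = 0.0729). By day 12 only Mtf2 lost its call to a single library, the Hnrnpk (0.41, adjusted p = 0.0502) or the lincRNA-p21 (0.47, adjusted p = 0.0615) library of day 12. The difference of Ezh1 from day 9 to day 12 was called without the control library of day 6 (0.44, adjusted p = 0.0341).

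**Figure D3:**
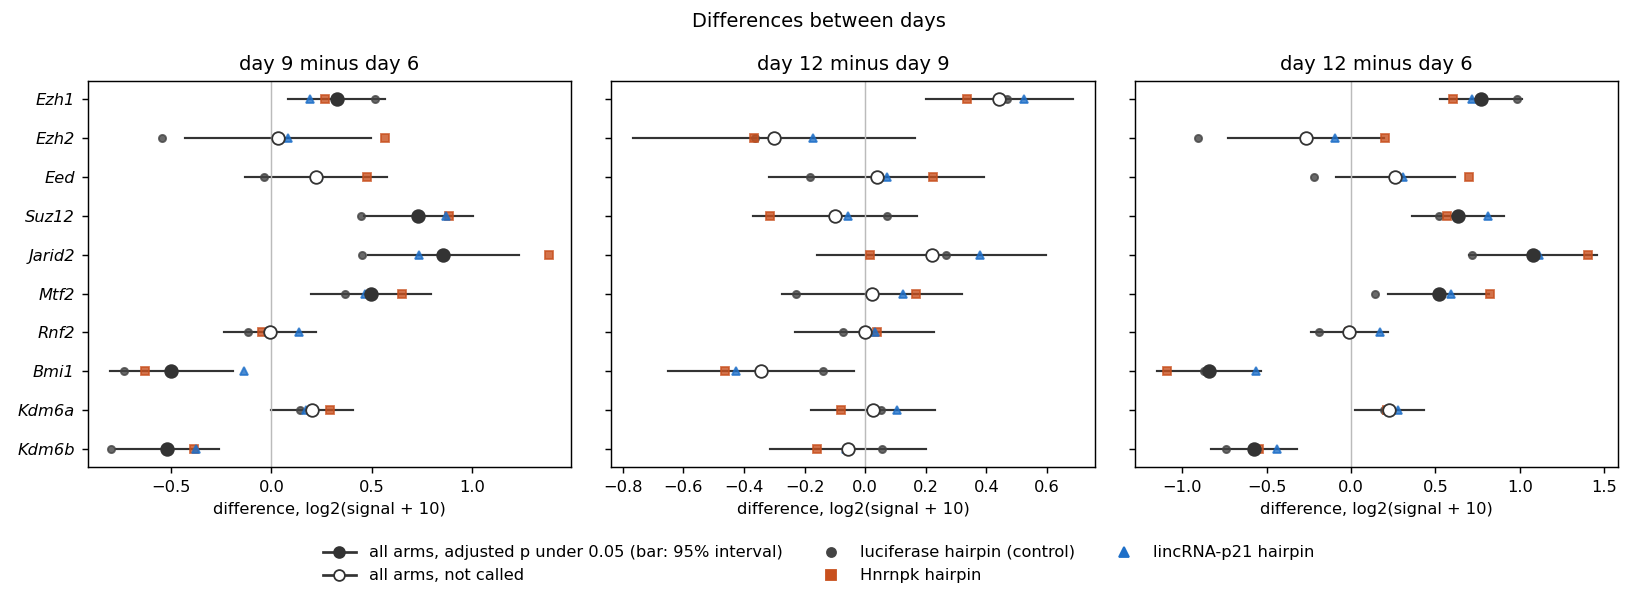
Difference between days in log2(signal + 10) (x axis, a separate scale in each panel) for each gene (y axis), over all arms (large circles, filled when the limma adjusted p was under 0.05, with 95% intervals as bars) and within each arm (small coloured marks, 1 library against 1). From day 6 to day 12 Jarid2 (1.08), Ezh1 (0.77), Suz12 (0.63) and Mtf2 (0.52) lay to the right of 0 in every arm, and Bmi1 (-0.84) and Kdm6b (-0.58) to the left.

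Other genes of these pathways were called in both directions between days 6 and 12, beside 22.3% higher and 27% lower over all genes. Of 8 further PRC2 accessory genes 1 rose and 2 fell, with a median of 0.07: Aebp2 rose by 0.81 (adjusted p = 0.003), while Epop fell by 0.97 (adjusted p = 0.00158) and Phf1 by 0.69 (adjusted p = 0.000991). Of 23 other PRC1 genes 5 rose and 7 fell, shares near those over all genes, with a median of -0.22. Phc1, a Polyhomeotic subunit, rose most, by 1.34 (adjusted p = 0.00222), from 1204 to 1841 on day 6 to 3381 to 4086 on day 12. Pcgf5 rose by 1.07 (adjusted p = 0.000162), whereas Pcgf2 (Mel18), the closest relative of Bmi1, fell from 1365 to 2228.5 on day 6 to 762 to 986 on day 12 (adjusted p = 0.00268), and Yaf2 fell by 0.94 (adjusted p = 0.000272). The Pcgf proteins distinguish the forms of PRC1, with Pcgf2 and Bmi1 in the canonical form. Of 7 genes for removal of H2A ubiquitin 0 rose and 2 fell, Foxk2 (-0.67, adjusted p = 0.0027) and Asxl2 (-0.31, adjusted p = 0.0294).

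Both H3K27 acetyltransferases, which place a mark on the same lysine, fell by day 12: Crebbp by 1.21 (adjusted p = 0.00017), from 4296 to 6001.5 on day 6 to 2033 to 2162 on day 12, and Ep300 by 0.68 (adjusted p = 0.00262), from 4696.5 to 6582 on day 6 to 3244 to 3482.5 on day 12. Of 12 COMPASS genes, which place or support methylation of lysine 4 of histone H3, 0 rose and 5 fell by day 12, with a median of -0.28. By day 9 1 rose and 5 fell, with a median of -0.21. The gene that rose was Wdr5 (0.41, adjusted p = 0.0218), named after its values were seen. The largest falls by day 12 were those of Paxip1 (-1.35, adjusted p = 0.000343), Ncoa6 (-1.16, adjusted p = 0.000157), Men1 (-0.77, adjusted p = 0.000304) and Kmt2a (-0.59, adjusted p = 0.00791). Paxip1 and Ncoa6 belong to the complexes that also hold Kdm6a, which itself was not called. At the Ink4 locus, a classical Polycomb target, Cdkn2a rose by 1.21 (adjusted p = 0.000221), from 2379.5 to 2669.5 on day 6 to 5570 to 6033.5 on day 12, and Cdkn2b fell by day 9 (-0.86, adjusted p = 0.0123) and differed by -0.43 on day 12 (adjusted p = 0.121).

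Between arms, Ezh1 was the gene of the 10 that differed under the Hnrnpk hairpin. It was lower than control by 0.38 on day 6, 0.63 on day 9 and 0.76 on day 12, with a mean signal of 1680 against 2599. The difference of -0.59 (SE 0.11, 95% interval -0.83 to -0.35, adjusted p = 0.0108) is 1.51-fold. Over all genes 5.58% were higher and 6.94% lower in this comparison, so 1 gene called of 10 is near that background. In the same comparison 7 of 16 pluripotency markers (median 1.53) and 6 of 12 epithelial markers (median 0.81) were called higher and 1 of each lower, and their part in the Ezh1 difference was not tested. The call was lost without the control library of day 9 (-0.55, adjusted p = 0.0634), without the Hnrnpk library of day 9 (-0.60, adjusted p = 0.0536), without day 9 (adjusted p = 0.176) or day 12 (adjusted p = 0.111), and with only the 2 arms in the fit (adjusted p = 0.0728).

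The other 9 genes did not pass the test between the Hnrnpk and control arms. Kdm6b was below control on all 3 days (-0.55, -0.13 and -0.35), with a difference of -0.34 (95% interval -0.60 to -0.09, adjusted p = 0.0816). Kdm6a was higher on all 3 days, by 0.17, 0.33 and 0.19, with a difference of 0.23 (95% interval 0.02 to 0.44, adjusted p = 0.13). Eed differed by -0.13, 0.39 and 0.79 (mean 0.35, 95% interval -0.0039 to 0.70, adjusted p = 0.174), and it was called without the control library of day 6 (0.54, adjusted p = 0.0318), without the Hnrnpk library of day 6 (0.52, adjusted p = 0.0476) or without day 6 (0.59, adjusted p = 0.0165). Ezh2 averaged -0.04 (95% interval -0.50 to 0.42, adjusted p = 0.918) over differences of -0.78, 0.33 and 0.33, and without day 6 it was 0.33 (adjusted p = 0.0488). For Eed and Ezh2 the average over days therefore joined values of opposite sign. Without day 6 calls were more frequent over all genes as well, with 1470 higher and 1531 lower of 12541. With all days, 700 were higher and 870 lower. Of the wider lists, the PRC1 gene Rybp rose by 0.61 (adjusted p = 0.0063) and Bcorl1, of the variant PRC1 with Bcor, fell by 0.71 (adjusted p = 0.00746), the only calls among 23 PRC1 genes. No gene of the PRC2 accessory, H2A deubiquitination, COMPASS or acetyltransferase lists was called by limma. At an unadjusted p under 0.05 they had 0 of 8, 3 of 7, 0 of 12 and 0 of 2 genes, against 29.4% of all genes. At the Ink4 locus Cdkn2b rose by 1.09 (adjusted p = 0.0134), and Cdkn2a was below control on all 3 days (-0.08, -0.56 and -0.02), with a difference of -0.22 (adjusted p = 0.322).

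Under the lincRNA-p21 hairpin none of the 10 genes was called against control by limma, where 0.00797% of all genes were called. Of the 10, 1 (Ezh1) had an unadjusted p under 0.05, against 13.8% of all genes. Ezh1 was below control on all 3 days (-0.21, -0.53 and -0.48), with a difference of -0.41 (95% interval -0.65 to -0.16, adjusted p = 0.158). Kdm6b was below control on all 3 days as well, with -0.44, -0.01 and -0.13 (adjusted p = 0.487). On day 6 all 10 genes were below control in this arm, with a median of -0.21, and on day 12 7 of 10 were above it, with a median of 0.12. In the Hnrnpk arm 8 of 10 were below control on day 6, with a median of -0.13, and 6 of 10 above it on day 12, with a median of 0.10. Both counts use the same control libraries, and the share over all genes on a single day is not given here. Other lists were also mostly below control on day 6 in the lincRNA-p21 arm, with 11 of 12 COMPASS genes and 12 of 12 epithelial markers. Of 23 other PRC1 genes 11 were below, and of 16 fibroblast markers 4. Directly compared, the lincRNA-p21 and Hnrnpk arms differed in none of the 10 genes by limma, where 3.26% of all genes were called. Of the 10, 1 (Kdm6a, -0.22, 95% interval -0.42 to -0.01, adjusted p = 0.242) had an unadjusted p under 0.05, against 19.0% of all genes.

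**Figure D4:**
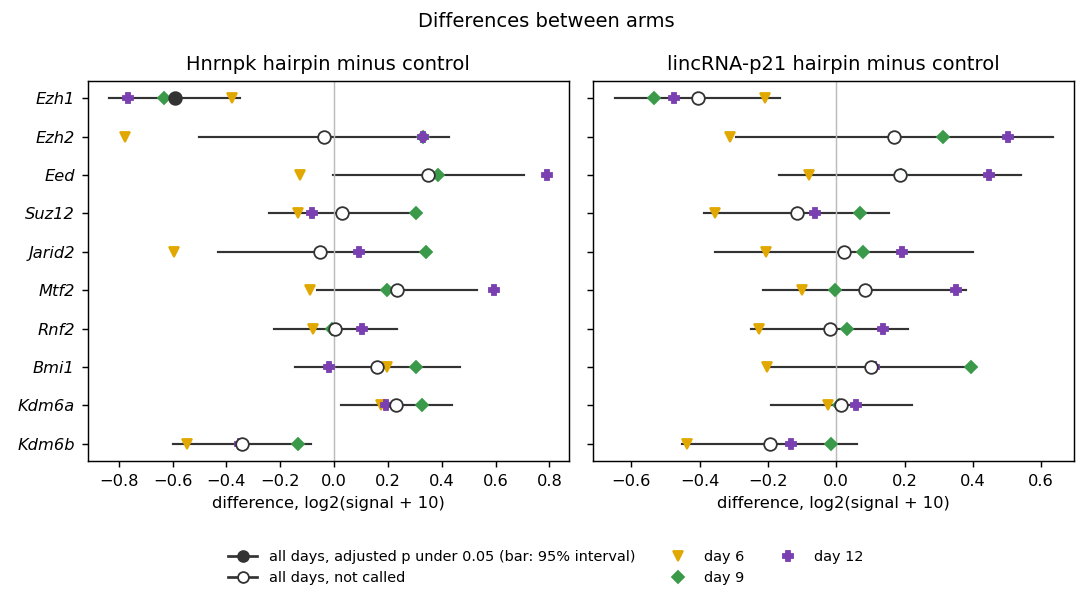
Difference from the control arm in log2(signal + 10) (x axis, a separate scale in each panel) for each gene (y axis), over all days (large circles, filled when the limma adjusted p was under 0.05, with 95% intervals as bars) and on each day (small coloured marks, 1 library against 1). Ezh1 lay below 0 on every day in both panels, with -0.59 in the Hnrnpk arm and -0.41 in the lincRNA-p21 arm, and the marks for Ezh2 and Eed crossed 0 between day 6 and the later days.

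Whether an arm difference changed over time was tested as a slope per 3 days. In the Hnrnpk arm Eed was the only gene of the 10 called, with a slope of 0.46 (SE 0.09, 95% interval 0.24 to 0.68, adjusted p = 0.0303), where 5.06% of all genes had a higher and 4.3% a lower slope. Ezh2 had a slope of 0.55 (SE 0.15, adjusted p = 0.0569) and Mtf2 of 0.34 (SE 0.10, adjusted p = 0.0635). Ezh1 had a slope of -0.19 (95% interval -0.43 to 0.04, adjusted p = 0.239). When the change was instead set as a step between day 6 and the later days, chosen after the values were seen, Ezh2 was called with 1.11 (SE 0.17, adjusted p = 0.0245), where 3.96% of all genes had a higher step. In the same test Jarid2 had 0.81 (SE 0.19, adjusted p = 0.0516) and Eed had 0.72 (SE 0.20, adjusted p = 0.0744). The slope of Eed was also not called without an intensity trend (adjusted p = 0.0561). In the lincRNA-p21 arm no gene of the 10 was called by limma, and 0% of all genes were called. In that arm 3 of the 10 (Ezh2, Eed and Mtf2) had an unadjusted p under 0.05, as did 2107 (16.8%) of all genes. There the slopes were 0.41 for Ezh2 (95% interval 0.06 to 0.75, adjusted p = 0.242) and 0.26 for Eed (95% interval 0.04 to 0.48, adjusted p = 0.237). The Hnrnpk and lincRNA-p21 slopes share the control libraries.

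The median difference from control over genes of cell division had the sign of the Ezh2 difference on each day in both knockdown arms. All 25 proliferation genes (cyclins, mitotic kinases and replication factors) were below control on day 6 in the Hnrnpk arm, with a median of -0.60, and 22 of 25 were above it on day 12, with a median of 0.79. In the lincRNA-p21 arm 25 of 25 were below on day 6, with a median of -0.22, and 25 of 25 above on day 12, with a median of 0.66. Both arms are set against the same control libraries, and the share over all genes on a single day is not given here. The summed signal of the 25 genes went from 99612.5 to 51583 in the control arm between days 6 and 12. It went from 60321.5 to 83818.5 in the Hnrnpk arm and from 71412 to 81317.5 in the lincRNA-p21 arm. Ezh2 in the lincRNA-p21 arm went the other way over these days, from 2033 to 1905. In the slope test of the Hnrnpk arm 19 of 25 were called higher and 0 lower, with the largest slopes for Ccnb1 (1.14, adjusted p = 0.0167) and Birc5 (0.97, adjusted p = 0.0167). Across the 9 libraries the correlation of Ezh2 with these genes had a median of 0.77 (0.41 to 0.94), against 0.05 over all genes, as a description over libraries that share arms and days. For Eed the median was 0.53, for Suz12 -0.03 and for Ezh1 -0.35. For the remaining genes followed here it lay between -0.01 (Jarid2) and 0.37 (Rnf2). Of the 9 genes with promoter windows, only Ezh2 and Suz12 had a match to the E2F-type motif, and a link to these correlations was not tested. Rising slopes in the Hnrnpk arm were not confined to the proliferation genes, whose median slope was 0.65. By limma 7 of 16 pluripotency markers (median 1.05) and 3 of 12 epithelial markers (median 0.17) were called higher and 0 lower. Of 16 fibroblast markers 0 were called higher and 1 lower. The part of any of these lists in the Ezh2 and Eed values was not tested.

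**Figure D5:**
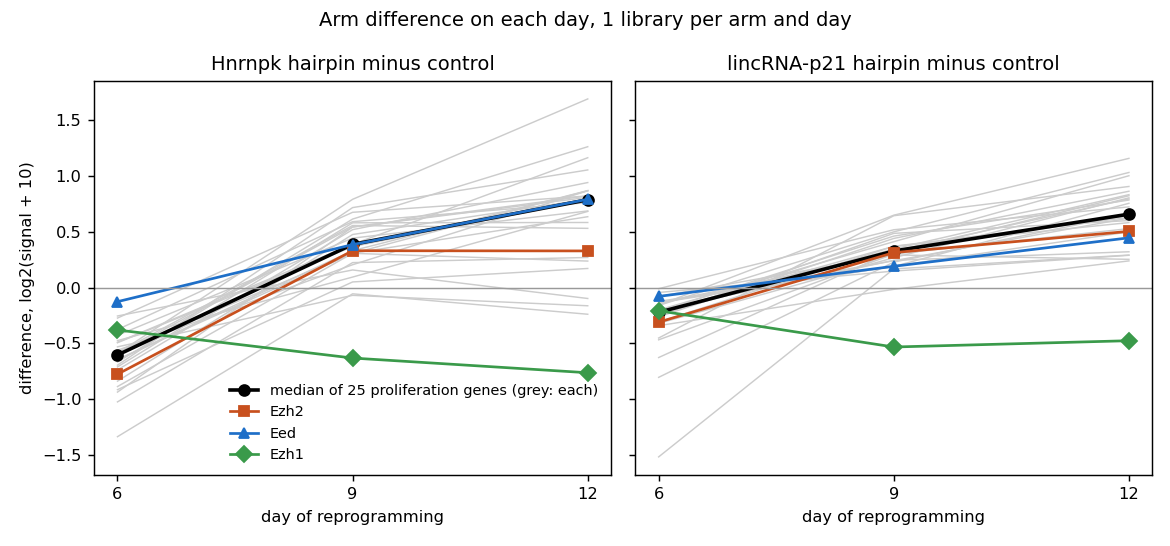
Difference from the control arm in log2(signal + 10) (y axis) against day (x axis) for 25 proliferation genes (thin grey lines), their median (black), Ezh2 (orange squares), Eed (blue triangles) and Ezh1 (green diamonds), 1 library per arm and day. The median crossed from -0.60 to 0.79 in the Hnrnpk panel and from -0.22 to 0.66 in the lincRNA-p21 panel, Ezh2 and Eed crossed 0 likewise, and Ezh1 stayed below 0.

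The genes whose log2 signal was most like that of each role's representative over the 9 libraries were ranked by Pearson's r, as a description. For Ezh2 they were Rfc5 (0.980), a clamp loader subunit of DNA replication, Suv39h2 (0.977), an H3K9 methyltransferase, and Ncapd2 (0.976), a condensin subunit. For Bmi1 they were Pag1 (0.992), Stox2 (0.986) and Ebf2 (0.986). For Kdm6b they were Brd3 (0.990), which binds acetylated histones, Trerf1 (0.990) and Meis2 (0.987), a homeobox factor. Outside the 10 genes, r was over 0.9 for 82 genes with Ezh2, 375 with Bmi1 and 375 with Kdm6b, so many genes shared each pattern. Among the 10 genes themselves, Suz12 and Jarid2 had r = 0.89, Eed and Mtf2 0.86, and Jarid2 and Mtf2 0.86. Bmi1 ran opposite to Jarid2 (-0.87) and Ezh1 (-0.82), Mtf2 opposite to Kdm6b (-0.83), and the paralogs Ezh1 and Ezh2 had r = -0.45. All these values share the days and arms of the same libraries.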

How the data were processed

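Total RNA of 9 libraries was sequenced, 1 per arm and day. Per the submitters' processing notes, RSEM 1.2.12, Bowtie 1.0.1 and the build mm10 were used, with no role given. The values deposited by the authors are a normalized signal whose scaling no source used here describes, nor how replicates were merged. In the deposited table all values are multiples of 0.5, 62.8% of them whole numbers, and column totals differ by 0.0252%, so no count test was used and the depth is unknown. With 10 added, log2 values of the 12541 genes with a mean of at least 20 were tested with limma 3.58.1 (R 4.3.3), with an intensity trend. Terms for arm and day, which compare arms within days, left 4 residual degrees of freedom, and slopes (arm by day, per 3 days) left 2. Other pseudocounts, filters, scalings and sets of libraries were tried. Exon lengths came from GENCODE M21 and promoters from RefSeq GRCm38.p6. Of 139 listed symbols 126 were in the table, 5 under an older name. The members and lists were chosen with earlier results of these data known. All 10 members are named, and of each other list at most the 4 called genes with the largest difference, with the 3 genes most like Ezh2, Bmi1 and Kdm6b.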

Additional observations from a re-analysis of the deposited data

Results flagged for a closer look

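The difference between the Hnrnpk and control arms changed over the days by limma's test of the slope per 3 days, with Benjamini-Hochberg adjustment, for 634 genes upward and 539 downward of 12541, and 9 of those named from the 10 genes and their lists are given here. Eed had a slope of 0.46 (adjusted p = 0.0303), from -0.13 on day 6 to 0.79 on day 12. Among PRC1 genes Pcgf2 had 0.54 (adjusted p = 0.0476), with differences of -0.70, 0.29 and 0.37 on days 6, 9 and 12, and among COMPASS genes Dpy30 had 0.62 (adjusted p = 0.0209) and Pagr1a 0.43 (adjusted p = 0.0494). Cdkn2b, at the Ink4 locus, had -0.61 (adjusted p = 0.0326), from 1.84 on day 6 to 0.62 on day 12. The proliferation genes with the largest slopes were Ccnb1 (1.14, adjusted p = 0.0167), Birc5 (0.97, adjusted p = 0.0167), Mcm5 (0.88, adjusted p = 0.0236) and Ccna2 (0.87, adjusted p = 0.0236). Each slope rests on 3 libraries an arm, and a called slope does not show that the change was even over the days.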

How the results depend on the processing

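Of 1120 values of the 10 genes under alternatives, 1069 kept their side of the threshold, 38 lost a call, 12 gained one and 1, Ezh2 in the Hnrnpk arm without day 6 (0.33), turned from -0.04 to a call, within -0.22 to 0.33 over the libraries and days left out. Another 73 changed sign where no call was made. The causes were not tested. With only the 2 arms compared, 330 genes and 0 of the 10 were called for Hnrnpk (2599 and 1 at an unadjusted p under 0.05), 0 genes for lincRNA-p21 (1964 unadjusted) and 646 between the knockdown arms. Without an intensity trend, lincRNA-p21 gave 13 genes and the Hnrnpk slope 596 genes and 0 of the 10 (3 unadjusted). From day 9 to day 12, a pseudocount of 1 gave 50 genes, and only the 2 days 833 genes and 1 of the 10, Ezh1. With libraries, arms or days left out, the genes called ranged from 25 to 3001 for Hnrnpk (0 to 3 of the 10), 0 to 175 for lincRNA-p21 (0 to 0), 0 to 959 between the knockdown arms (0 to 0), 1778 to 5605 from day 6 to day 9 (1 to 6), 0 to 421 from day 9 to day 12 (0 to 1) and 3073 to 6225 from day 6 to day 12 (4 to 7). Without the lincRNA-p21 arm 1 of 6 day 9 calls was left, with Suz12 at 0.66 (adjusted p = 0.0544), Jarid2 at 0.92 (adjusted p = 0.0506), Kdm6b at -0.59 (adjusted p = 0.0688), Ezh1 at 0.39 (adjusted p = 0.163) and Mtf2 at 0.51 (adjusted p = 0.132), and at day 12 Suz12 (0.54, adjusted p = 0.0699) and Mtf2 (0.48, adjusted p = 0.124) were lost. Without the Hnrnpk arm Ezh1 (0.36, adjusted p = 0.0857), Mtf2 (0.42, adjusted p = 0.0699) and Bmi1 (-0.44, adjusted p = 0.0818) lost their day 9 calls and Mtf2 its day 12 call (0.37, adjusted p = 0.0831). Without the control arm Ezh1 (0.23, adjusted p = 0.125) and Bmi1 (-0.38, adjusted p = 0.0937) lost their day 9 calls. Slopes were not refitted with libraries left out. Divided by length, 9 of the 10 genes changed rank by median level. The number of reads is unknown, so no limit from depth can be given.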
